A study of Mus musculus with 31 samples.

Results

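The genes described here are 10 transcripts known from the visceral endoderm of the yolk sac, Afp, Ttr, Gc, Apoa1, Apoa2, Apoa4, Apob, Fgg, Kng1 and S100g, taken from the 20314 genes in the tables. They were chosen by name because they were high in the yolk sac libraries, so their height there is a description and carries no test. All 10 were found in both the table of counts and the table of TPM (a scaled transcript abundance, a level that allows for transcript length and can be compared between genes). The study measured messenger RNA by RNA-seq in 31 mouse libraries of 9 groups, around cultured lines called expandable hemangioblasts (eHBs), which are progenitors able to form blood and endothelium.

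The yolk sac group (YS, n = 2) and the embryo group (EMB, n = 2) were endothelial cells taken at E11.5 (E, embryonic day), sorted for VE-cadherin and Pecam1 and lysed without culture. Hematopoietic stem cells of E14.5 (HSC, n = 1) were sorted as CD45+, CD201+, CD150+ and CD48- and were not cultured either. Embryonic stem (ES) lines RB2, RB3 and RB4 (n = 3) were grown with CHIR99021, PD0325901 and LIF. Mesoderm (n = 3) came from the same ES lines after 4 days, the later ones with Activin A, CHIR99021, BMP4 and FGF2, and was sorted for Kdr. The 5 eHB lines were kept in 2 µg/mL doxycycline and FGF2: RB3.6.5 and RB4.6.9 derive from ES cells, M5 from embryonic fibroblasts, FL4 and FL10 from fetal liver. The medium of RB3.6.5 and RB4.6.9 also held VEGF, 8-Bromo-cAMP, SB431542 and BMP4. All 5 lines were then cultured for 3 days in that fuller medium without doxycycline (endothelial cultures, n = 5, not sorted). For blood, the same lines were kept with CHIR99021, SCF, IL-3 and Flt3L in 1.5% oxygen. Cells positive for VE-cadherin and negative for CD45 were sorted on day 2 (n = 5), and cells positive for both on day 3 (n = 5). Each eHB line is 1 culture, and no label ties the replicates of YS or EMB to different animals, so their spread, and every p-value that rests on it, may be technical.

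The visceral endoderm is the absorptive epithelium on the outer face of the rodent yolk sac. It takes up maternal proteins and lipids, and it makes serum proteins and lipoproteins for the embryo before the liver does so. Many of its genes are used again by hepatocytes and by the lining of the gut, under the transcription factors of the HNF4, HNF1, FOXA and GATA families. It is an epithelium and not part of the endothelium for which these cells were sorted.

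The libraries held 9424412 to 79497758 expected counts, with 24221267 to 26220764 in YS and 23548227 to 30400302 in EMB. Both carried the endothelial genes that their label names. Cdh5, which encodes VE-cadherin, was at 1826 and 1410 TPM in YS and at 1079 and 1509 TPM in EMB, and all 10 endothelial markers were detected in each of these libraries. Markers of other cells were present as well. The summed level of 7 erythroid genes was 5775 and 11785 TPM in YS and 2594 and 32895 TPM in EMB, so that the EMB libraries differed widely in red cell transcripts. The 8 macrophage markers summed to 733 and 784 TPM in YS and to 244 and 379 TPM in EMB. Of these sums Mrc1, which some endothelium also carries, gave 498 and 335 TPM in YS and 19.6 and 39.5 TPM in EMB. The other macrophage markers were all higher in YS replicate 2 than in replicate 1, as C1qb at 70.6 and 142 TPM in turn.

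Afp, the fetal serum carrier of the albumin family, was the leading transcript of the set. It lies on chromosome 5 (90490737 to 90508907, GRCm38, GENCODE) and reached 7392 and 7385 TPM in the YS libraries, where only 1 of 20314 genes had a higher mean. In EMB it was at 6.35 and 2.83 TPM and in HSC at 7.75 TPM. In pooled counts scaled by depth, YS stood 1411-fold above EMB (95% interval 1250 to 1600, counting error only). The interval leaves out the spread between libraries and is no test of the height in YS. Every YS value lay above every value of the other 29 libraries, which is the property by which the gene was picked. In bulk samples such as these, fewer cells of a type and less RNA per cell cannot be told apart.

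Ttr encodes transthyretin, the carrier of thyroxine and of retinol-binding protein, and lies on chromosome 18 (20665280 to 20674321). It was at 816 and 777 TPM in YS, at 0.742 and 0.455 TPM in EMB and at 0.442 TPM in HSC. Elsewhere it was seen only in eHB lines M5 (0.147 TPM, 2 counts) and FL4 (0.221 TPM, 4 counts), and the other 24 libraries had no count. Gc encodes the vitamin D-binding protein (chromosome 5, 89417522 to 89457898) and was the lowest of the set in YS, at 35.0 and 39.0 TPM. No Gc count was seen in EMB, and with a floor of 3 counts over that group YS was at least 538-fold higher in counts scaled by depth. Among the carriers Afp was thus the highest and Gc the lowest in both YS libraries, with Ttr between them.

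The apolipoproteins ranged widely in YS. Apoa1, the main protein of high-density lipoprotein, was at 1607 and 1497 TPM in YS and at 2.55 and 0.971 TPM in EMB. Apoa2, its partner in the same particles, was at 697 and 754 TPM in YS and at 8.85 and 4.09 TPM in EMB. Apoa4, an exchangeable apolipoprotein of chylomicrons, was at 448 and 475 TPM in YS and at 0.041 and 0.362 TPM in EMB. The YS to EMB ratio in counts scaled by depth was 764-fold for Apoa1 and 98.9-fold for Apoa2 (95% interval 81.4 to 121), the smallest ratio of the 10 genes. For Apoa4 it was 2516-fold, resting on 8 EMB counts (1277 to 5829). Both intervals cover counting error only and leave out the spread between libraries. Apoa1 (46228580 to 46230466) and Apoa4 (46240696 to 46243459) lie in 1 cluster on chromosome 9, and Apoa2 on chromosome 1 (171225054 to 171226379).

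Apob, the non-exchangeable backbone of chylomicrons and very-low-density lipoprotein, gave the widest gap between the YS libraries. It was at 156 TPM in replicate 1 and 62.5 TPM in replicate 2, a ratio of 0.400 (replicate 2 to replicate 1), while the other members lay within 0.863 and 1.11. In EMB it was at 0.113 and 0.072 TPM. Apob (chromosome 12, 7977648 to 8016835) has the longest transcript of the set, at 13934 nt, and the YS libraries differed by transcript length over all genes. Among genes at 20 TPM or more, the median ratio of replicate 2 to replicate 1 was 1.11 for transcripts under 1 kb (532 genes) and 0.717 for those over 8 kb (195 genes). Cubn (0.411) and Lrp2 (0.427), 2 endocytic receptors with long transcripts, showed the same low ratio as Apob. In EMB the gradient ran the other way, from 0.822 under 1 kb to 1.55 over 8 kb. The part of transcript length in the gap for Apob was not tested.

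Fgg, the gamma chain of fibrinogen, was at 158 and 159 TPM in YS and at 0.041 and 0.062 TPM (1 count each) in EMB. Kng1, the kininogen from which bradykinin is released, was at 82.4 and 76.8 TPM in YS and at 0.041 and 0 TPM in EMB. S100g, or calbindin-D9k, is a cytosolic calcium-binding protein and the only gene of the set whose product is not secreted. It was at 318 and 274 TPM in YS, with no EMB count, so that YS was at least 1274-fold higher in counts scaled by depth. S100g gave 1 count in all 29 libraries outside YS, in ES line RB4. The gene lies on chromosome X (162961992 to 162964599) on the strand opposite to Ctps2, whose annotated span covers it. Ctps2 was at 5.62 to 67.1 TPM in those 29 libraries, so reads of Ctps2 gave next to no S100g value there. Fgg lies on chromosome 3 (83007724 to 83015049). Kng1 (chromosome 16, 23057865 to 23082078) has a near copy beside it, Kng2, at 20.1 and 21.8 TPM in YS, and the division of reads between them is uncertain.

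**Figure D1:**
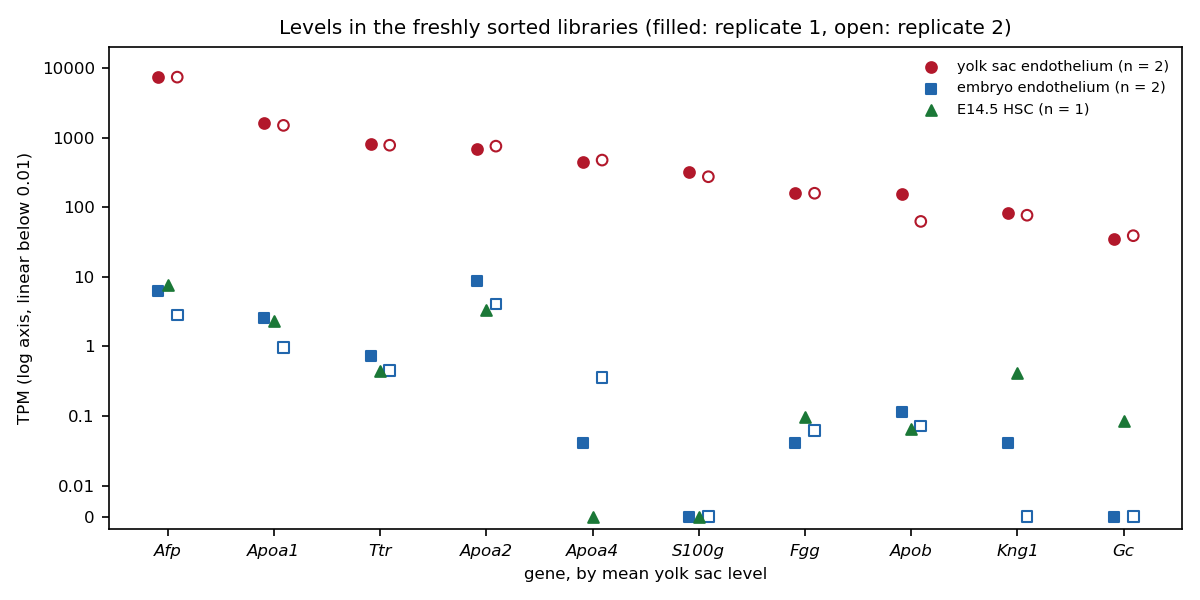
TPM of each of the 10 genes in the freshly sorted libraries (log axis, linear below 0.01), with YS as red circles, EMB as blue squares and HSC as green triangles. The YS points range from 35.0 TPM for Gc to 7392 TPM for Afp, and Apob is the gene whose YS points lie farthest apart (156 and 62.5 TPM).

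By mean level in YS the order was Afp, Apoa1, Ttr, Apoa2, Apoa4, S100g, Fgg, Apob, Kng1 and Gc. Afp and Apoa1 stood clear of their neighbours in this order. Ttr and Apoa2 were close (777 and 816 against 697 and 754 TPM), and the values of Kng1 fell inside the range of Apob. Together the 10 genes made up 1.17% and 1.15% of all TPM in YS, with sums of 11710 and 11500 TPM. Afp alone gave 63.1% and 64.2% of these sums. The sum was 8.84 to 18.7 TPM in EMB, 14.51 TPM in HSC and 68.3 to 84.4 TPM in ES cells. It was 1.82 to 3.13 TPM in mesoderm and 2.07 to 4.14 TPM in eHB. Endothelial cultures had 11.9 to 20.3 TPM, day 2 blood 2.79 to 22.8 TPM and day 3 blood 6.93 to 23.1 TPM.

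The bases before the start of some of these genes are given because the members are high together in YS and the factor families that bind such regions were measured too. Promoters were found in RefSeq (GRCm38.p6) for 8 of the 10 genes, and Ttr and Kng1 are not shown. Motifs were searched on both strands in the 250 bases before each RefSeq start, and distances are counted from it. For some genes this start is not that of the GENCODE span given above. The Afp window ends at 90490713, short of the GENCODE start at 90490737. The Apob window ends at 7977676, past the GENCODE start at 7977648. The windows of Apoa1 (end at 46228629, start at 46228580) and Apoa4 (end at 46240843, start at 46240696) also run past the GENCODE start. The TATA box was spelled TATAAA. The first HNF1 half-site, a sequence bound by that family of factors, was spelled GTTAAT. The second HNF1 half-site differs in its last base and was spelled GTTAAC. The FOXA motif, for the forkhead factors of endoderm, was spelled TGTTTAC. The GATA motif, for the zinc finger factors of that name, was spelled AGATAA. The HNF4 motif, for the nuclear receptor of that name, was spelled CAAAGTCCA. None of these letter strings is part of another. The 5 windows that held a match follow, 5′ to 3′ on the strand of the gene, with matches in capitals. They are Afp (chr5:90490464-90490713, plus strand), Gc (chr5:89457899-89458148, minus), Apoa2 (chr1:171224804-171225053, plus), Apob (chr12:7977427-7977676, plus) and S100g (chrX:162964600-162964849, minus).
Afp: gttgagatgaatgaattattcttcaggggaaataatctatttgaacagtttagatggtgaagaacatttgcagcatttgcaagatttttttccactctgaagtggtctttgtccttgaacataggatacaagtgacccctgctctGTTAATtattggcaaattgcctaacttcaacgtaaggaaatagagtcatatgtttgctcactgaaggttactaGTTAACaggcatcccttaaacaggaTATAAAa
Gc: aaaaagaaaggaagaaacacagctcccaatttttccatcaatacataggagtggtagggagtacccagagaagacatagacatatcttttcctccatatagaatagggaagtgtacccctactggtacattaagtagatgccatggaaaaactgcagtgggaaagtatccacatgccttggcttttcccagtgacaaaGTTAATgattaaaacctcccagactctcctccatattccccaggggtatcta
Apoa2: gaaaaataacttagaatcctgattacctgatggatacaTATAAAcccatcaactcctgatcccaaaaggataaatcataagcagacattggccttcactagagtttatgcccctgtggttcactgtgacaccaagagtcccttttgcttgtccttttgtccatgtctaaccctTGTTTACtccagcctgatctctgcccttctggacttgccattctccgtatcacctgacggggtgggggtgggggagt
Apob: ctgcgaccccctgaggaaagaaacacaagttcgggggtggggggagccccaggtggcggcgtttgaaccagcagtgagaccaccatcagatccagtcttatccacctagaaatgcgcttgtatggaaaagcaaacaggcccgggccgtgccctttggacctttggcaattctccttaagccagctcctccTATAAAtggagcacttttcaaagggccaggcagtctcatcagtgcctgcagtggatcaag
S100g: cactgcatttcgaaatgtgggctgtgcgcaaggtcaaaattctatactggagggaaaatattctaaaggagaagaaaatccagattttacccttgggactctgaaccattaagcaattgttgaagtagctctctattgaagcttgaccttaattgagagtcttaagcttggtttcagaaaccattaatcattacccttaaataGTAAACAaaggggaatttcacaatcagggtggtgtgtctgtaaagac

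The Afp window held the first HNF1 half-site 105 to 100 bases before the RefSeq start. It held the second 32 to 27 bases and the TATA letters 7 to 2 bases before that start. Gc held the first HNF1 half-site at 52 to 47 bases, and Apob held the TATA letters at 60 to 55 bases. Apoa2 held the FOXA letters at 77 to 71 bases and the TATA letters at 212 to 207 bases. S100g held the FOXA letters on the opposite strand, 47 to 41 bases before the start. Over all 32851 promoters of the same length, 12.4% held the TATA letters, 6.43% the first HNF1 half-site, 2.56% the second and 3.17% the FOXA letters. The GATA letters (9.99% of all) and the HNF4 letters (0.384% of all) matched in none of the 8 genes searched. The windows of Apoa1, Apoa4 and Fgg held none of these motifs, which says only that these letters are not in them. A second Apoa2 start in RefSeq, upstream of the first, had no match either.

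**Figure D2:**
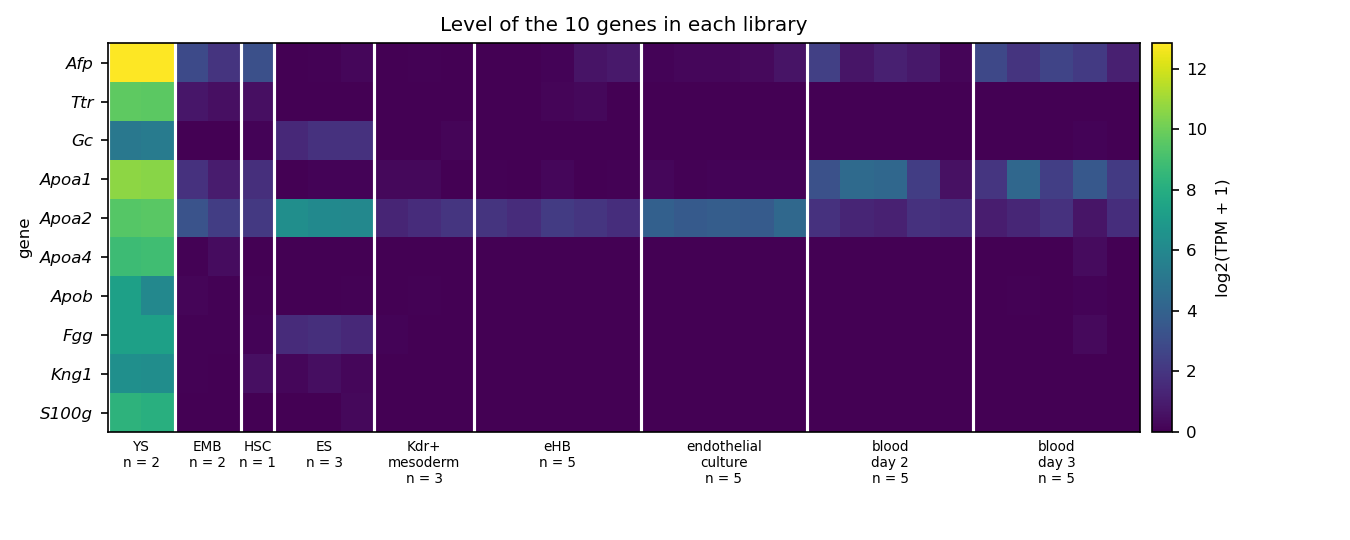
Level of the 10 genes (rows) in each of the 31 libraries (columns, ordered by group), as log2(TPM + 1). YS, EMB and HSC are the freshly sorted groups. All 10 genes are bright in the YS columns. Among the other columns Apoa2 is brightest in ES cells (63.3 to 80.4 TPM) and then in endothelial cultures (11.7 to 19.6 TPM), with lower signal in EMB, HSC and eHB as well, and Afp and Apoa1 show in EMB, HSC and blood.

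Outside YS the members differed in where else they were detected. The group with the next highest mean was ES cells for Apoa2, Fgg, Gc and S100g, EMB for Ttr, Apoa4 and Apob, HSC for Afp and Kng1, and day 2 blood for Apoa1. Across the 31 libraries, the Pearson correlation of log2(TPM + 1) between a gene and the mean of the other 9 was highest for Kng1 (0.994) and S100g (0.990). It was lowest for Apoa2 (0.739) and Apoa1 (0.830). These coefficients rest mainly on the 2 YS libraries, which are far from the rest, and are given as a description.

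In ES cells, Apoa2 was at 80.4, 68.6 and 63.3 TPM in lines RB2, RB3 and RB4. In Kdr-positive mesoderm from these lines it was at 1.50, 2.06 and 2.90 TPM, without overlap. From ES cells to mesoderm Apoa2 fell by 4.67 ± 0.25 on the log2 scale (± SE, edgeR quasi-likelihood test, Benjamini-Hochberg adjusted p = 3.34e-07, n = 3 and 3). Fgg was at 1.99, 2.30 and 1.77 TPM in ES cells and at 0.102, 0 and 0 TPM in mesoderm, and it fell by 5.51 ± 0.73 (adjusted p = 7.82e-05). Gc was at 1.79, 2.57 and 2.58 TPM in ES cells and at 0, 0 and 0.133 TPM in mesoderm, and it fell by 5.06 ± 0.71 (adjusted p = 0.000125). These 3 were the members with enough counts to be tested, and 40.0% of 13539 genes tested were called lower. Fgg and Gc had 0 to 4 counts in each mesoderm library and met the filter through ES cells alone, so that they could only come out lower, and nothing is read from the number called. Medium and stage differ together between these groups and cannot be told apart.

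The partners of these genes had other levels in ES cells. Fgg was detected with almost none of the other chains of fibrinogen: Fga was at 0.0397 ± 0.00666 TPM (SD, n = 3) and Fgb had no count in ES cells, while in YS the chains were at similar levels (Fga 152 and 132 TPM, Fgb 150 and 157 TPM). Kng1 was at 0.174, 0.377 and 0.185 TPM in ES cells beside 4.24 ± 0.905 TPM of Kng2, the reverse of their order in YS. Of the lipid carriers in ES cells, Apoe was at 1502 ± 202 TPM and Apoc1 at 96.8 ± 16.6 TPM, while Apoa1 was at 0, 0.086 and 0.098 TPM. Apoa4 and Ttr had no count in the ES libraries.

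In the eHB lines Apoa2 was at 2.88 TPM in RB3.6.5, 2.06 in RB4.6.9, 3.74 in M5, 2.91 in FL4 and 2.16 in FL10. In their endothelial cultures it was at 14.52, 11.7, 19.6, 12.8 and 12.1 TPM in the same order of lines. Every culture stood above every eHB library, and the rise of Apoa2 was 2.39 ± 0.30 on the log2 scale (edgeR adjusted p = 4.71e-05, n = 5 and 5). That fit leaves the pairing by line aside. With the line as a block the rise was 2.39 as well (edgeR adjusted p = 0.000182). Apoa2 was the only member tested in this comparison, in which 34.3% of 12579 genes were called higher. The rise was present in RB3.6.5 and RB4.6.9, whose medium changed by the loss of doxycycline only, and in the other lines, which also gained VEGF, 8-Bromo-cAMP, SB431542 and BMP4. In all 5 lines the loss of doxycycline came together with the 3 days of culture, and these cannot be told apart. The part of the medium in the rise was not tested. Apoa1 stayed at 0.043 to 0.174 TPM in the endothelial cultures, and Ttr, Gc, Apoa4, Fgg, Kng1 and S100g had no count in them. Between mesoderm and eHB the Apoa2 difference was 0.02 (adjusted p = 0.967, n = 3 and 5, with overlapping values). It was the only member tested there, and 46.6% of 13282 genes were called in either direction.

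**Figure D3:**
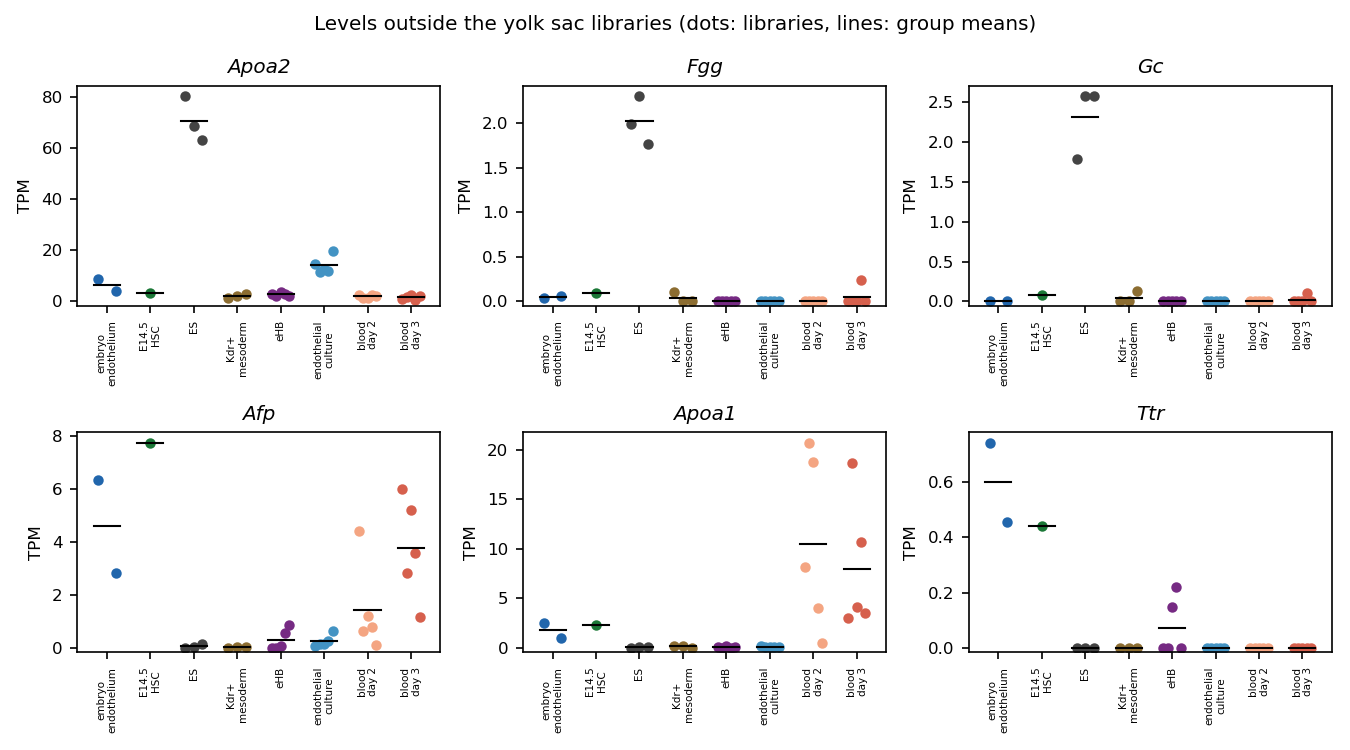
TPM of Apoa2, Fgg, Gc, Afp, Apoa1 and Ttr in the 8 groups other than YS (dots are libraries, lines are group means, each panel with its own linear axis). Apoa2 reaches 63.3 to 80.4 TPM in ES cells and 11.7 to 19.6 TPM in endothelial cultures, and Apoa1 reaches 20.7 TPM in day 2 blood.

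Apoa1 was detected in every blood culture, where Apoa2 was not called. On day 2 it was at 8.18 TPM in M5, 20.7 in FL4, 18.8 in FL10, 4.07 in RB3.6.5 and 0.511 in RB4.6.9, from 7 to 299 counts a library. The eHB libraries held 0 to 2 Apoa1 counts (0 to 0.168 TPM), so the groups did not overlap. The gene missed the filter on low counts in this comparison and has no test in the main fit. Without the filter the fitted log2 fold change was 8.08 ± 1.27 (edgeR adjusted p = 0.000666), a size that depends on the few eHB counts. On day 3 Apoa1 was at 2.98 TPM in M5, 18.6 in FL4, 4.15 in FL10, 10.7 in RB3.6.5 and 3.54 in RB4.6.9. It was lower than on day 2 in M5, FL4 and FL10 and higher in RB3.6.5 and RB4.6.9, and the difference of the days was -0.52 ± 0.87 (adjusted p = 0.75, n = 5 and 5).

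Afp was also present in blood cultures. It lay below Apoa1 in every line on day 2, and on day 3 above it in M5 and FL10 only. On day 2 it was at 4.42 TPM in M5, 0.648 in FL4, 1.198 in FL10, 0.806 in RB3.6.5 and 0.112 in RB4.6.9. In eHB it was at 0.084 TPM in M5, 0.580 in FL4 and 0.858 in FL10, with no count in RB3.6.5 and RB4.6.9. The day 2 difference from eHB was 3.06 ± 1.38 on the log2 scale and did not pass the test (edgeR adjusted p = 0.0799, DESeq2 adjusted p = 0.0408). With the line as a block the difference was 3.265 (edgeR adjusted p = 0.0596). Without the day 2 library of M5 it was 1.74 (edgeR adjusted p = 0.273). On day 3 Afp was at 5.99 TPM in M5, 2.85 in FL4, 5.198 in FL10, 3.59 in RB3.6.5 and 1.15 in RB4.6.9, above day 2 in 5 of 5 lines. The difference of day 3 from day 2 was 1.13 ± 0.88 (edgeR adjusted p = 0.446). With the line as a block it was 1.85 ± 0.52 (adjusted p = 0.0662), still short of the threshold.

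No member was called between eHB and day 2 blood by edgeR, with Afp and Apoa2 tested 54.1% of 12269 genes called and 28.5% called higher. Only Afp had an unadjusted p under 0.05 there, and it was the 1 member that DESeq2 called. Between day 2 and day 3 no member was called either, by edgeR or DESeq2, with Afp, Apoa1 and Apoa2 tested, and 10.2% of 12084 genes called. In these fits, which leave the pairing by line aside, no member had an unadjusted p under 0.05. With the line as a block Afp had an unadjusted p of 0.00955, and limma on log2(TPM + 1) gave 0.0338 (adjusted p = 0.182). Apoa2 was at 1.28 to 2.57 TPM on day 2 and 0.663 to 2.55 TPM on day 3. The blood libraries had no count of Ttr, Kng1 or S100g. Single counts to 7 counts of Gc, Apoa4, Apob and Fgg were seen in day 3 blood, all of them in RB3.6.5, the shallowest library (9424412 counts), apart from Apob in FL4 (5 counts). The blood libraries also held erythroid genes at a summed 2641 to 61590 TPM on day 2 and 334 to 14574 TPM on day 3, and macrophage markers at 2.63 to 9.75 and 100 to 401 TPM. Their part in the Afp and Apoa1 values was not tested.

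The embryo endothelium held Afp, Ttr and the apolipoproteins at low levels and no count of Gc, and the cultured endothelium offered a comparison that leaves YS out. Afp was at 6.35 and 2.83 TPM in EMB and at 0.087 to 0.627 TPM (median 0.161) in endothelial cultures, a difference of 4.196 ± 0.74 on the log2 scale (edgeR adjusted p = 0.00369, n = 2 and 5). Apoa1 was at 2.55 and 0.971 TPM against 0.043 to 0.174 TPM, a difference of 4.26 ± 0.68 (adjusted p = 0.00233). Apob was at 0.113 and 0.072 TPM against at most 0.011 TPM, a difference of 4.05 ± 0.91 (adjusted p = 0.00845). Without EMB replicate 1 the Apob call was lost (3.56, adjusted p = 0.0804). In this comparison 4 members were tested, and 23.4% of 13725 genes were called higher in EMB. Apoa1 and Apob had 0 to 3 counts in each culture and met the filter on low counts through EMB alone. Afp had 3 to 16 counts in each culture and also needed the EMB libraries to meet the filter. The number of members called higher thus carries no weight of its own.

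The value of Apoa2 was lower in EMB in that comparison, at 8.85 and 4.09 TPM in EMB and 11.7 to 19.6 TPM in the cultures, a difference of -1.07 ± 0.47 that edgeR did not call (adjusted p = 0.102). On log2(TPM + 1) limma called it lower in EMB (adjusted p = 0.0224). EMB replicate 1 held the higher value of Afp, Ttr, Apoa1, Apoa2 and Apob, and replicate 2 that of Apoa4 and Fgg. Replicate 1 was also the EMB library with fewer erythroid transcripts. The EMB libraries held 12.6 and 13.4 TPM of 12 epithelial markers in all, against 677 and 812 TPM in YS.

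Albumin is the adult relative of Afp. Alb, which lies 14135 bp from Afp on the same strand, was at 58.9 and 97.6 TPM in YS, or 0.797 and 1.32 per 100 TPM of Afp. In EMB it was at 3.37 and 0.238 TPM, or 53.1 and 8.41 per 100 of Afp. In HSC it was at 6.58 TPM beside 7.75 TPM of Afp, or 84.8 per 100. The blood cultures of day 2 held Afp with no count of Alb. The ratio of Alb to Afp thus differed by group, lowest in YS among the freshly sorted libraries, and its difference was not tested.

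Other genes known from the same tissue, not all of them particular to it, were then compared between YS and EMB. They came from 5 lists of 67 genes in all, and 63 could be tested. The lists were written by known role but with earlier results of these libraries known, so their direction is not independent evidence. In YS 54 were higher and 2 were lower than in EMB, with a median log2 fold change of 5.61, while 15.9% of 13673 genes were called higher, 8.54% lower and the median of all was -0.03. Some of the list genes met the filter on low counts through YS alone, as Apoc3 and Afm (no EMB count) and Kng2 (1 EMB count). Such genes could only come out higher, so nothing is read from the numbers called, here or list by list below. The 12 epithelial markers, a separate list, were all called higher (median 6.32), led in level by Krt8 (252 and 194 TPM against 2.13 and 0.372) and Krt18 (220 and 207 against 2.30 and 2.93). They are not particular to YS. Their sum was 677 and 812 TPM in YS, 1050 to 1180 TPM in ES cells and 1422 to 1902 TPM in mesoderm. It was below YS in HSC (263 TPM), eHB, endothelial cultures and blood. The 10 members showed the same direction by choice.

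Endocytic and brush border genes were called higher in YS in 10 of 10 cases. Dab2, an endocytic adaptor, was at 381 and 333 TPM in YS and 65.4 and 93.8 TPM in EMB (2.13 ± 0.21, adjusted p = 4.97e-05). In the endothelial cultures Dab2 was at 66.4 to 232 TPM, while Amn was at 0.24 to 0.425 TPM. Amn, which anchors cubilin at the apical membrane, was at 90.3 and 68.8 TPM against 0.082 and 0.341 TPM (8.63 ± 0.38, adjusted p = 4.24e-07). Cubn itself was at 89.4 and 36.8 TPM, with the same gap between YS libraries as Apob, against 0.237 and 0.217 TPM. These receptors take up proteins of the kind that the members encode, among them Apoa1 and the vitamin D-binding protein.

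Lipoprotein assembly genes, which load lipid onto Apob, were split, with 6 of 12 higher and 1 lower. Mttp, the transfer protein that lipidates Apob, was at 31.8 and 25.5 TPM against 1.68 and 1.83 TPM (3.89 ± 0.22, adjusted p = 1.61e-06). P4hb, its partner subunit with wide roles in protein folding, was at 895 and 833 TPM against 605 and 573 TPM and was not called (0.50, adjusted p = 0.171). Mogat2, an enzyme of triglyceride synthesis, was lower in YS (43.6 and 38.1 against 80.0 and 62.0 TPM, -0.87 ± 0.23, adjusted p = 0.0186), a call lost without YS replicate 2 or EMB replicate 1. Apobec1, the editing enzyme of the Apob transcript, was at 2.48 and 2.84 against 1.99 and 3.21 TPM (adjusted p = 0.985).

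The other apolipoproteins were higher in YS in 8 of 8 tested cases. Apoe was at 2035 and 1748 TPM against 443 and 571 TPM (1.86 ± 0.23, adjusted p = 0.000245), beside larger fitted changes for Apom (218 and 196 against 0.763 and 0.455 TPM, 8.27 ± 0.31) and Apoc2 (179 and 161 against 0.577 and 0 TPM, 8.85 ± 0.47). Apoc3, which lies between Apoa1 and Apoa4, was at 10.3 and 7.87 TPM in YS with no count in EMB. Apoa5, at the far end of that cluster, was at 0.425 and 0.688 TPM with no EMB count. Levels in YS within the cluster thus ran from 0.425 TPM for Apoa5 to 1607 TPM for Apoa1.

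Plasma proteins outside the set were higher in 22 of 23 tested cases, and Alb was the exception among these (5.24 ± 1.22, adjusted p = 0.0746), with EMB values far apart. Serpina6 and Hrg, also on this list of 25, had too few counts to be tested. Both held more counts in EMB (27 and 8 in turn) than in YS (3 and 1). The most abundant were Selenop, the selenium carrier (2230 and 2054 against 423 and 366 TPM), and Trf, the iron carrier (1329 and 1304 against 93.0 and 107 TPM). Rbp4, the retinol carrier that binds transthyretin, was at 517 and 397 against 0.825 and 0.393 TPM (9.39 ± 0.35, adjusted p = 1.86e-07). Spp2, a secreted phosphoprotein, was at 246 and 239 against 0.134 and 0.093 TPM (10.79 ± 0.34, adjusted p = 1.46e-07).

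Transcription factors of the visceral endoderm were higher in YS in 8 of 10 tested cases. Gata6 was at 38.3 and 34.1 TPM against 7.59 and 8.26 TPM (2.14 ± 0.19, adjusted p = 2.76e-05). Hnf4a, a regulator of many apolipoprotein genes, was at 27.4 and 18.6 TPM against 0.052 and 0.093 TPM (8.35 ± 0.38, adjusted p = 4.83e-07). Creb3l3, a liver and gut factor of lipid metabolism, was also higher (2.71 ± 0.27, adjusted p = 5.52e-05), and Nr5a2 was not called (0.71 ± 0.25, adjusted p = 0.0642). Gata4 was lower in YS (4.74 and 13.2 against 44.2 and 46.9 TPM, -2.37 ± 0.46, adjusted p = 0.0118), a call that was lost without EMB replicate 1, without EMB replicate 2 and without the filter on low counts.

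**Figure D4:**
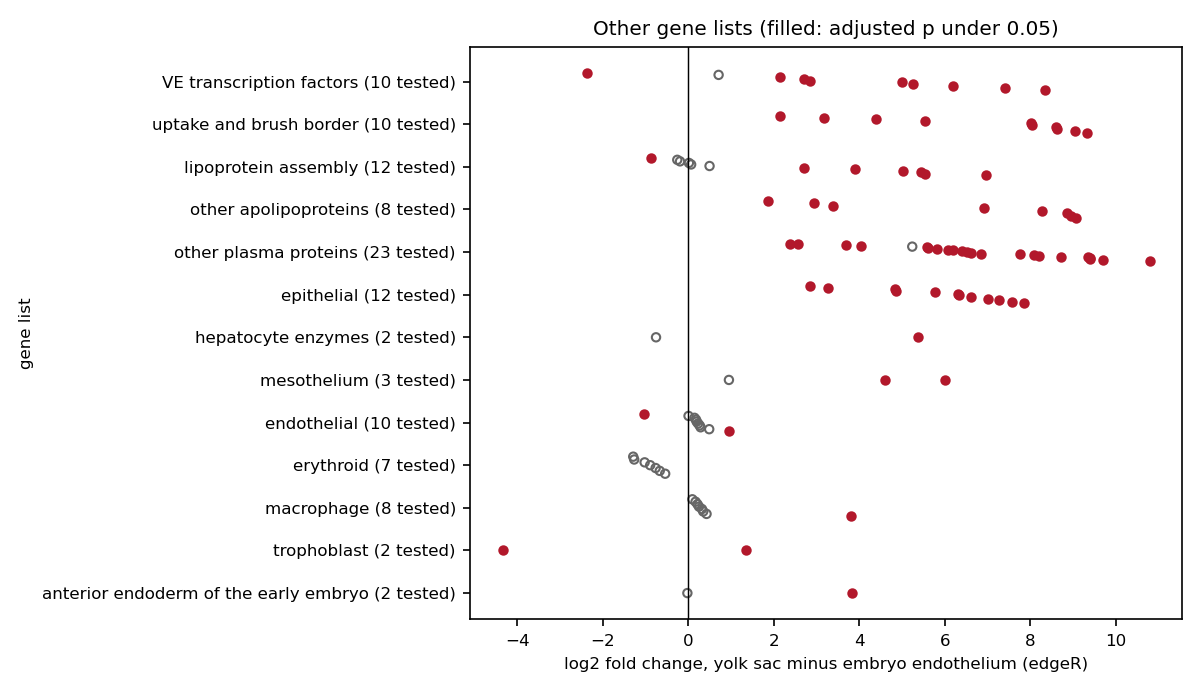
edgeR log2 fold change of YS minus EMB for each tested gene of the 13 lists, none of them members (filled points have an adjusted p under 0.05, open points do not; VE, visceral endoderm). The 5 lists at the top and the epithelial list lie mostly right of 0, with 54 of 63 genes of the 5 lists called higher, and the endothelial, erythroid and macrophage points lie near or left of it, apart from the macrophage list gene Mrc1.

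Lists for other cell types were read in the same fit. Of 10 endothelial markers, Tek was higher (0.94 ± 0.22, adjusted p = 0.0121) and Emcn lower in YS (-1.03 ± 0.24, adjusted p = 0.00967). The Tek call was lost without either YS library and the Emcn call without YS replicate 1. No erythroid gene was called among 7, and without EMB replicate 2, 3 were called higher in YS, while without EMB replicate 1, 4 were called lower. Of 8 macrophage markers Mrc1, a receptor that some endothelium also carries, was called (498 and 335 against 19.6 and 39.5 TPM, adjusted p = 2.1e-05). Of 12 hepatocyte enzymes, Tat, Mat1a, Cyp3a11, Hamp, Cyp2c29, Sult2a1 and Uox had no count in YS, and only 2 were tested. Otc was called higher (1.19 and 2.09 against 0.062 and 0 TPM). Cyp2e1 was not called (3.13 and 2.16 against 3.59 and 5.15 TPM, adjusted p = 0.194). Of the 3 mesothelial markers tested, Upk3b and Upk1b were called higher and Lrrn4 was not called (adjusted p = 0.116). Wt1 was not tested (0 and 0.052 TPM in YS, 0.196 and 0.279 TPM in EMB), and Msln had no count. Of 8 trophoblast markers 2 were tested. Plac1 was called higher (118 and 73.9 against 38.7 and 33.5 TPM) and Prl3b1 lower, while Prl3d1 and Ctsq had no count. Of the genes of the anterior endoderm of the early embryo 2 were tested, and Lefty1 was called higher and Hhex was not.

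**Figure D5:**
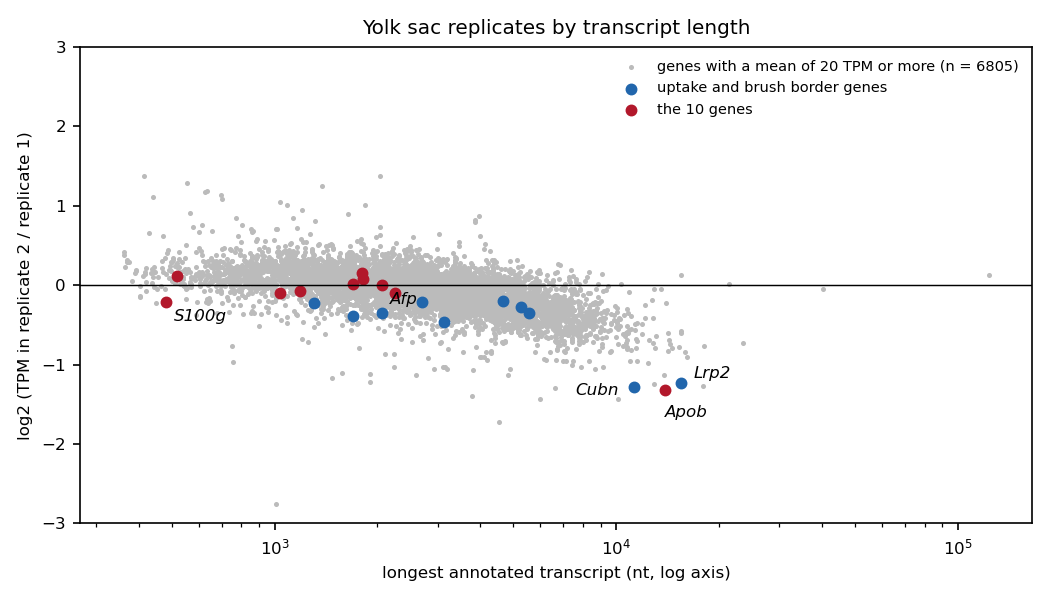
Log2 ratio of the TPM of YS replicate 2 to replicate 1 against the longest annotated transcript (log axis), for 6805 genes at 20 TPM or more (grey), the uptake and brush border genes (blue) and the 10 members (red). The grey cloud slopes down with length, and Apob, Cubn and Lrp2 lie at its low end with ratios of 0.400, 0.411 and 0.427.

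The genes whose levels over the 31 libraries were most like the mean of the members were then listed among 6678 genes at 20 TPM or more in YS. Among the highest were Serpina1d, Serpind1, Fga, Fgb, Spp2, Serpina1c, Plg, Serpina1a and Slc39a5, with Pearson correlations from 0.994 for Serpina1d to 0.989 for Slc39a5. In YS they ranged from 20.2 TPM (Serpina1d) to 243 TPM (Spp2), and no other group reached a mean of 1 TPM for any of them. The coefficients rest mainly on the YS libraries, and both the members and the candidates were chosen by their height there. A candidate that is low outside YS ranks high by this measure, so the low levels elsewhere follow largely from the ranking. The list is given as a description, and shared regulation of these genes was not tested. Of those named, Slc39a5 encodes a zinc transporter and the others encode secreted plasma or matrix proteins. Serpina1a, Serpina1c and Serpina1d are close copies of each other, and the division of reads between them is uncertain.

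Of the genes next to the members on the chromosome, 10 outside the lists were tested between YS and EMB, and 7 were not called. Neighbours that belong to the lists are not counted there. Of those, Afm, Apoc3, Apoa5, Fga and Kng2 were called higher in YS and Alb was not called. Tomm40l beside Apoa2 was at 33.4 and 35.6 TPM in YS and 43.1 and 36.3 TPM in EMB and was not called (-0.26, adjusted p = 0.411). Sik3 beside Apoa1 (-0.31, adjusted p = 0.401), B4galt6 beside Ttr (0.15, adjusted p = 0.645) and Eif4a2 beside Kng1 (0.27, adjusted p = 0.341) were not called either, nor were Klhl29 (adjusted p = 0.605) and 1110057K04Rik (adjusted p = 0.424) beside Apob and Syap1 beside S100g (adjusted p = 0.226). Fcer1g on the other side of Apoa2 (1.23, adjusted p = 0.0026), Dsg2 beside Ttr (2.83, adjusted p = 0.00077) and Slc4a4 beside Gc (1.50, adjusted p = 0.0345) were higher in YS, where 15.9% of all genes tested were.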

How the data were processed

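RNA was taken up in Trizol, cleaned on RNeasy columns with DNase and made into libraries with Illumina's kit (TruSeq, RNA Sample Prep v2), per the labels' protocols. Strand handling is not given in the sources used here, so overlapping antisense genes cannot be told apart. Per the submitters' processing notes, CASAVA 1.8.2, RSEM 1.2.3, Bowtie 0.12.9 and build mm10 were used. The authors deposited expected counts per gene, in which reads fitting several transcripts are divided among them. The authors deposited TPM as a second table, marked as renormalised in a way not given in the sources used here. That table's header has 1 surplus name, which was left out before columns were assigned by name. In a check, 31 of 31 TPM columns were closest to their own count column.

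In R 4.3.3, edgeR 4.0.16 was run on expected counts rounded to whole numbers (TMM, filterByExpr, robust quasi-likelihood F test), only the compared groups entering each of 7 fits, with Benjamini-Hochberg adjustment over all genes tested and a threshold of 0.05. SE values are the unshrunk log2 coefficient over the square root of F. The scripts were tested on simulated data. DESeq2 1.42.0, limma 3.58.1 on log2(TPM + 1) and log2(TPM + 0.1), DESeq2 size factors, no filter, the replicate block and leaving out each library were alternatives. Pooled-count ratios carry exact intervals, and a group without counts was given 3 counts as its floor, both covering counting error only. The cell line in the titles pairs mesoderm with ES cells, and endothelial and blood cultures with eHB. The main fits left this pairing aside, and the line entered only as the replicate block. Samples of one eHB line deviated together (correlations of 0.218 to 0.663), while ES and mesoderm did not (-0.0615 to 0.0521). The numbers of YS and EMB mark no shared source. No pair of libraries was a duplicate (48 pairs).

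The members and the lists were chosen with earlier results of these data known. The genes named are the members, up to 4 genes of each list by YS level together with list genes without counts, the 10 genes most like the members, their neighbours and the sorting markers. Some items that this rule names are not reported here. Some further list genes (Mttp, P4hb, Mogat2, Apobec1, Gata4, Nr5a2, Lrp2, Apoc1, Apoc3, Apoa5, Kng2, Serpina6, Hrg and the called markers of other cells) were named after their values were seen. Of 138 list genes, 136 were matched to the tables. Members are annotated from GENCODE on GRCm38.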

Additional observations from a re-analysis of the deposited data

Results flagged for a closer look

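Afp in day 2 blood of line M5 stood apart from the other lines, at 4.42 TPM against 0.112 to 1.198 TPM in FL4, FL10, RB3.6.5 and RB4.6.9. The gap to the next library was a larger share of the range than the 95% critical value of Dixon's test for 5 samples allows. Among members and groups with a mean of at least 1 TPM and enough libraries, 8 sets were looked at, and chance alone flags about 1 in 20. On day 3 the M5 library was also the highest of its group for Afp (5.99 TPM), though not set apart from FL10 (5.198 TPM). For Apoa1 the M5 library lay inside the range of the other lines on day 2 (8.18 TPM).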

How the results depend on the processing

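With the replicate block, no call of a member changed, and 54 of the other visceral endoderm genes were higher and 2 lower in YS, as without it. The number of members called higher in day 2 blood than in eHB was 0 and became 1 with DESeq2 and 1 without the filter on low counts (Afp and Apoa1 in turn), and ranged from 0 to 1 when 1 library was left out. Without any 1 of the eHB lines, or without day 2 blood of RB4.6.9, Apoa1 met the filter and was called. The number called lower in EMB than in endothelial cultures was 0 and became 1 with limma on log2(TPM + 1) and 1 on log2(TPM + 0.1) (Apoa2), and limma on log2(TPM + 1) did not call Apob (0.12, adjusted p = 0.225). The number of other visceral endoderm genes lower in YS was 2, became 1 without the filter, and ranged from 0 to 2 when 1 library was left out. Without a test being passed in any setting, 3 small differences changed sign: Apoa2 in eHB against mesoderm (-0.014 with DESeq2 size factors, -0.026 with DESeq2, -0.16 to 0.34 with 1 library left out), Apoa2 in day 2 blood against eHB (-0.32 and -0.45 with limma) and Apoa1 in day 3 against day 2 blood (0.042 with limma on log2(TPM + 0.1)). The cause was not tested. Most members had too few counts outside YS to be tested, and with 2 libraries each in YS and EMB, 1 library can decide a call.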
